A study of Mus musculus with 96 samples.

Results

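The genes described here are 57 listed genes of mouse chromosome 5 that lie around Htt, the gene whose expanded CAG repeat causes Huntington's disease. They were chosen by symbol and by position, about 12 Mb or less from Htt, with earlier results of these data known. Htt itself was left out. Of the 57, 55 were found by gene identifier among the 39179 genes of the counts table, and Mpv17 and Gtf3c2 were not analysed here. A filter on low counts kept 53 of the 55 for testing at both ages, since Ucn and Hgfac fell below it. By gene start, 51 of the 57 lie before Htt on the chromosome, towards lower coordinates, and 6 lie after it. All positions are those that the GENCODE M21 annotation of GRCm38 gives for the gene identifiers, in which Htt (ENSMUSG00000029104) spans chr5:34761740-34912534 on the plus strand. The build the authors used is not given in the sources used here.

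A knock-in allele is made by changing a gene in embryonic stem cells, and mice that carry it are then bred to a chosen inbred strain. Breeding exchanges the rest of the genome faster than it exchanges DNA on the same chromosome, because neighbouring DNA is separated from the allele only by crossing over. A stretch of the stem cell strain's chromosome can therefore travel with an allele for many generations, with whatever sequence variants it holds, and genes on it may differ in RNA level for reasons that have nothing to do with the altered gene. Comparing each knock-in with wild types gene by gene along the chromosome describes where such differences lie. The labels do not say how these alleles were made or how often they were backcrossed. Only RNA was measured, so no genotype of the surrounding DNA was used.

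The libraries are mRNA-seq of striatum, the forebrain region most affected in Huntington's disease. The mice were C57BL/6 by label and of 6 or 10 months, and each group of an age held 8 animals, 4 females and 4 males. The knock-in mice were heterozygous for an Htt allele named Q20, Q50, Q92 or Q140 after its CAG length, so each also carried a normal allele. There were 2 wild-type groups at each age, 1 housed with Q20 mice and 1 housed with Q50 mice, which gave 12 groups and 96 libraries. The controls of Q20 and of Q50 were the wild types housed with them, 8 against 8, and the controls of Q92 and Q140 were both wild-type groups, 8 against 16. The alleles' comparisons therefore share wild types, and their values are given side by side, not as independent repeats. Each library is called by its group, sex and number below, so that F3 is female number 3 of a group. The labels number the animals within each group, and samples of a group were treated as separate animals.

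Library totals ran from 29.1 to 40.2 M counts (M for mega), with means of 36.6 ± 1.59 M at 6 months and 32.3 ± 1.51 M at 10 months (SD, n = 48 each). Markers of striatal projection neurons were present in every library, and all 11 were above 0 throughout. Their mean log2 CPM at 6 months was 9.23 ± 0.157 in wild types of the Q20 cohort, 9.37 ± 0.0933 in those of the Q50 cohort and 8.62 ± 0.192 in Q140 (SD, n = 8 each). At 10 months it was 8.67 ± 0.94 in Q20 mice, with libraries from 6.99 to 9.48. The mean log2 CPM of 10 thalamus markers, a neighbouring tissue, ranged from 3.65 in Q50 to 5.43 in Q92 at 6 months and from 3.86 in Q140 to 6.00 in Q20 at 10 months. CPM here is the count scaled to a common library size after TMM normalization, and in bulk tissue fewer cells of a type and less RNA per cell cannot be told apart.

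Htt itself was measured in every library as a check on the labels. At 6 months its level was 160.2, 194.4 and 208.6 CPM (lowest, median and highest of 8) in wild types of the Q20 cohort and 151.3, 196.8 and 208.0 in those of the Q50 cohort. It was 195.8, 205.7 and 213.6 CPM in Q20, 184.1, 203.7 and 236.4 in Q50, 199.7, 207.6 and 211.1 in Q92, and 169.0, 171.6 and 180.7 in Q140. Htt RNA fell in Q140, by 0.14 ± 0.04 on the log2 scale at 6 months (SE, adjusted p = 0.00726) and by 0.31 ± 0.04 at 10 months (adjusted p = 4e-07), and passed the threshold in no other allele. The counts do not separate the knock-in from the normal allele, so they do not check the CAG lengths. Here and below, fold changes are log2 ratios with their standard errors from edgeR's quasi-likelihood F test, p-values are adjusted by the Benjamini-Hochberg method over all genes tested, and a gene is called at an adjusted p under 0.05.

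A small number of the 53 tested genes differed from wild type in every allele, and they did not include the ones next to Htt. In Q20, 4 of the 53 were called at 6 months, where 0.0231% of all genes were called, and 4 were called at 10 months, where 0.0405% of all genes were called. In Q50, 9 were called at 6 months against 0.0634% of all genes, and 9 at 10 months against 0.0636%. Q92 had 10 called at 6 months against 5.44% of all genes, and 9 at 10 months against 0.422%. Q140 had 23 called at 6 months against 23.7% of all genes, and 18 at 10 months against 19.2%. Of the Q140 calls, 16 were higher and 7 lower than wild type at 6 months, where 11.7% of all genes were higher and 12% lower, and 15 were higher and 3 lower at 10 months, where 10.8% were higher and 8.45% lower. Over the whole table, 4 genes were called in Q20 and 11 in Q50 at 6 months, so all the Q20 calls of that age and 9 of the 11 Q50 calls were genes of this set. At 10 months 4 of the 7 Q20 calls and 9 of the 11 Q50 calls were, and the other 3 Q20 calls were Grin2c, Slc6a3 and Gm49342, on other chromosomes. Since the set was listed with earlier results of these data known, its share of the calls is not independent of the listing. In the wild types of one cohort against those of the other, edgeR called 0 of the 53 at either age, against 0% and 0.347% of all genes, while 12 and 3 of them had an unadjusted p under 0.05.

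**Figure D1:**
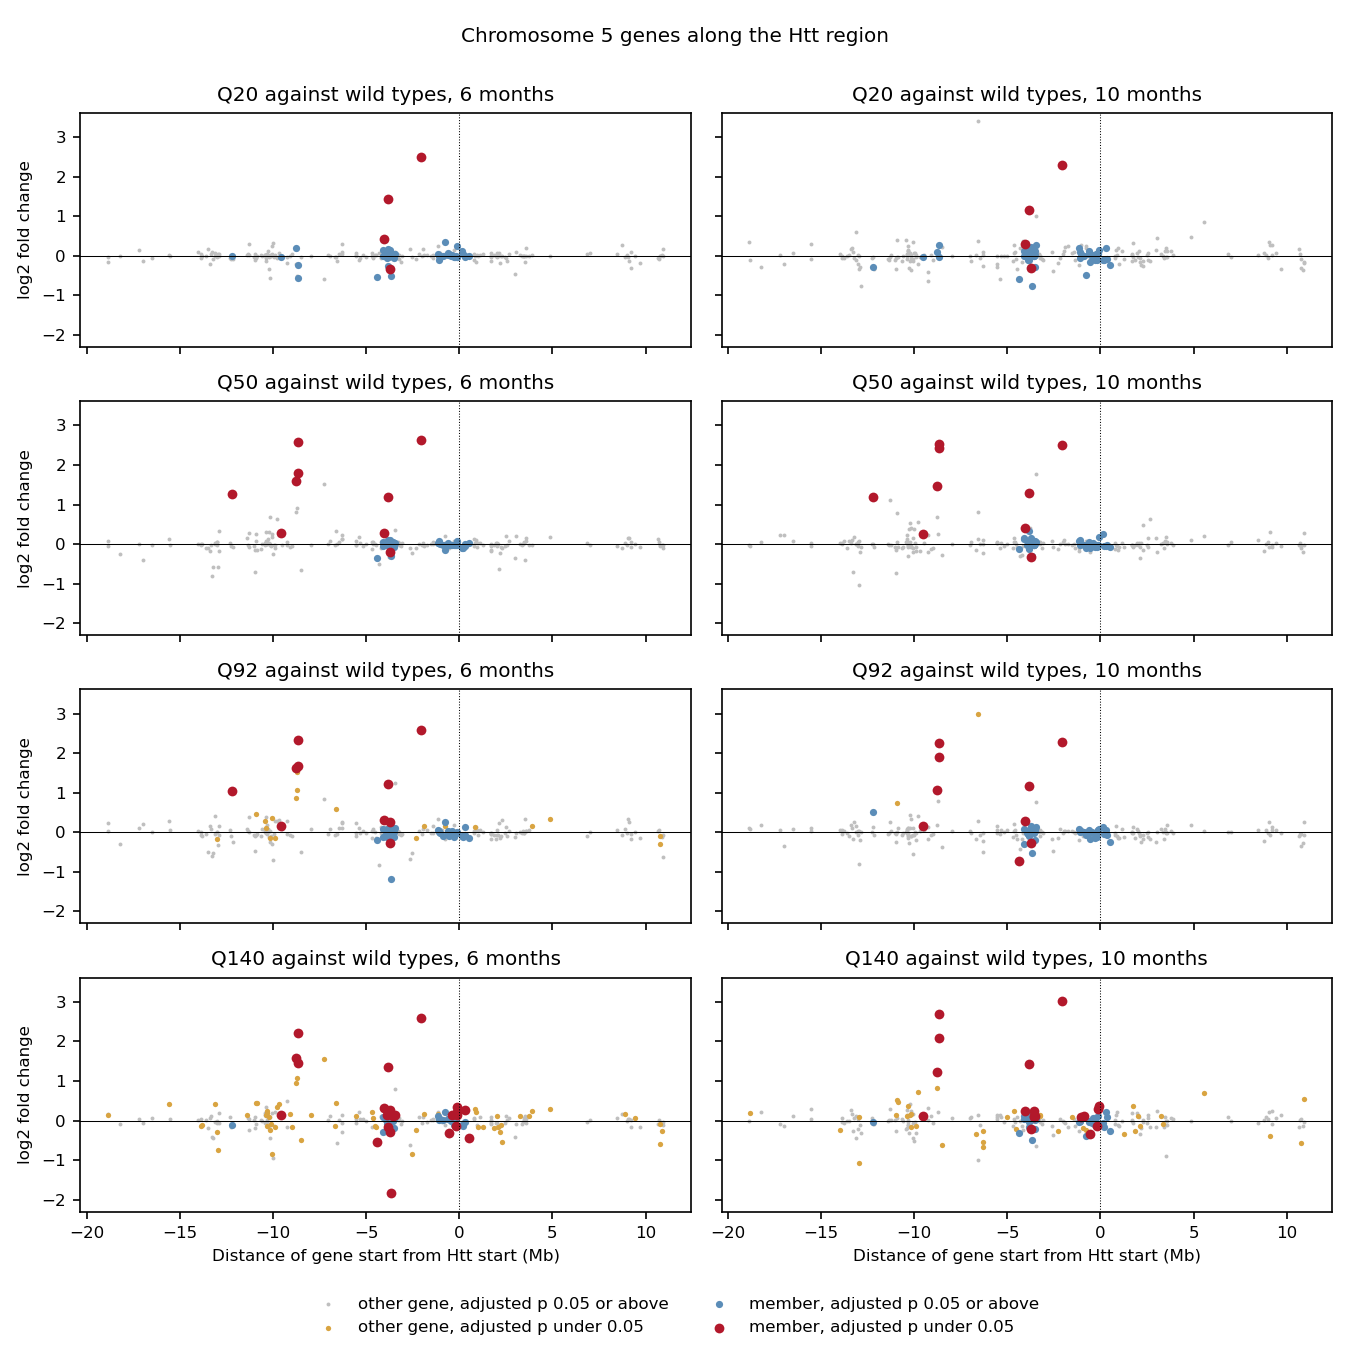
Log2 fold change of every tested gene around Htt against wild type (vertical axis) by distance of its start from the Htt start in Mb (horizontal axis), for each allele and age; red and blue points are called and not called genes of the set, yellow and grey points are called and not called other genes. The called genes of Q20 and Q50 lie between 2 and 13 Mb before Htt, while called genes of Q140 are spread over the whole window.

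By distance from Htt, the calls of the set were counted in blocks. The set holds no gene that starts between 4.39 and 8.66 Mb before Htt, so the space between blocks there reflects the listing. Of the 22 tested genes within 2 Mb of Htt, edgeR called 0 in Q20, Q50 and Q92 at either age, and neither DESeq2 nor limma on log2(FPKM + 0.1) called a gene of the set in those comparisons that edgeR did not. The numbers of these 22 with an unadjusted p under 0.05 were 1 and 2 in Q20 at 6 and 10 months, 0 and 1 in Q50, and 5 and 3 in Q92. Their median absolute log2 fold change at 6 months was 0.0205 in Q20, beside 0.0366 over all genes, and 0.0253 in Q50, beside 0.0396. At 10 months it was 0.0948 in Q20, beside 0.0886 over all genes, and 0.0495 in Q50, beside 0.0482. Of the 26 tested genes at 2 to 6 Mb, 4 were called in Q20 and 4 in Q50 at each age, 5 and 5 in Q92 at 6 and 10 months, and 11 and 8 in Q140. Of the 5 genes beyond 6 Mb, edgeR called 0 in Q20 at either age, 5 and 5 in Q50, 5 and 4 in Q92, and 4 and 4 in Q140. DESeq2 and limma called the same 4 genes in Q20 at each age as edgeR did, and the 4 are at 2 to 6 Mb.

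Genes near Htt that are not in the set were counted too. The set was listed with earlier results of these data known, so counts of genes outside it are not independent of that choice. Of 159 genes near Htt outside the set tested at 6 months and 158 at 10 months, edgeR called 0 in Q20 and 0 in Q50 at both ages. In Q92 it called 18 (11.3%, beside 5.44% of all genes) and 2 (1.27%, beside 0.422%). In Q140 it called 54 (34%, beside 23.7%) and 36 (22.8%, beside 19.2%). From 2 to 13 Mb after Htt, where 43 genes were tested at 6 months and 44 at 10 months, edgeR called 0 in Q20 and Q50. From 6 to 13 Mb before Htt, 5 of 70 tested genes (7.14%) were called in Q50 at 6 months, and these are the 5 distant genes of the set. In Q92 15 of 70 (21.4%) were called there at 6 months and 6 of 68 (8.82%) at 10 months. On other chromosomes 5.39% and 0.363% were called in Q92. In Q140 30 of 70 (42.9%) and 22 of 68 (32.4%) were called, beside 23.8% and 19.2% on other chromosomes. In Q92 and Q140 the calls of this stretch thus included genes outside the set.

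The genes called in all 4 alleles at both ages were Abhd1, Gm2420, Dpysl5 and Atraid, which start from 2.04 to 4.05 Mb before Htt. The first 3 rose and Atraid fell in all 8 comparisons. The set was listed with earlier results of these data known, so these calls are not independent of the choice of genes.

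Abhd1 (ENSMUSG00000006638, chr5:30950066-30955091, plus strand) is annotated as a processed transcript of a gene of the alpha/beta hydrolase fold family. In the 16 wild types it ran from 1.33 to 2.65 CPM at 6 months, with a median of 1.97, and from 1.49 to 2.86 at 10 months, with a median of 2.02. At 6 months the lowest, median and highest levels were 4.62, 5.04 and 5.60 CPM in Q20, 1.67, 5.23 and 6.24 in Q50, 4.12, 4.77 and 5.52 in Q92, and 4.41, 5.13 and 5.86 in Q140. Every knock-in library but Q50 F3 was above every wild type at that age. At 10 months they were 1.09, 4.91 and 5.84 CPM in Q20, 4.36, 5.53 and 6.29 in Q50, 3.38, 4.91 and 5.68 in Q92, and 4.64, 5.70 and 7.12 in Q140. There the exception was Q20 M4, which lay below the wild types.

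Abhd1 was thus 2.70-fold higher than wild type in Q20 at 6 months (log2 1.44 ± 0.14, adjusted p = 3.44e-09), 2.26-fold in Q50, 2.33-fold in Q92 and 2.55-fold in Q140. At 10 months it was 2.25-fold higher in Q20, 2.46-fold in Q50, 2.25-fold in Q92 and 2.67-fold in Q140, with adjusted p-values of 3.86e-05, 1.46e-06, 4.76e-07 and 5.02e-11. No difference of Abhd1 between alleles was called. Q140 minus Q20 was 0.03 on the log2 scale at 6 months (95% interval -0.23 to 0.29, adjusted p = 0.921). At 10 months Q140 minus Q20 was 0.31 (0.01 to 0.60, adjusted p = 0.134), an interval that is not adjusted and excludes 0. The slope of Abhd1 on CAG length, over 32 knock-in mice at each age, was 0.02 ± 0.12 per 120 repeats at 6 months (adjusted p = 0.938) and 0.21 ± 0.16 at 10 months (adjusted p = 0.373). Abhd1 overlaps Preb on the opposite strand, and their transcripts share 652 identical bases. Whether the counting used strand is not stated. Preb, a membrane protein of the endoplasmic reticulum involved in vesicle budding, had a mean log2 fold change over the alleles of -0.02 at 6 months and 0.01 at 10 months.

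Gm2420 (ENSMUSG00000082305, chr5:32720330-32736194, plus strand) is annotated as a transcribed unprocessed pseudogene. It was close to absent in wild types, at 0, 0.0292 and 0.106 CPM (lowest, median and highest of 16) at 6 months and 0, 0.0459 and 0.0985 at 10 months. In knock-ins at 6 months it was 0.192, 0.262 and 0.389 CPM in Q20, 0, 0.250 and 0.342 in Q50, 0.0585, 0.254 and 0.384 in Q92, and 0.172, 0.246 and 0.371 in Q140. These are low levels, about 1 count per wild-type library and 9 per knock-in library at the median. Gm2420 passed the low-count filter through its levels in knock-in libraries, so its being tested is not independent of the difference. The groups overlapped through Q50 F3, at 0, and Q92 M3.

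At 10 months Gm2420 was 0.0940, 0.214 and 0.351 CPM in Q20, 0.161, 0.255 and 0.358 in Q50, 0.151, 0.215 and 0.307 in Q92, and 0.120, 0.381 and 0.626 in Q140. Q20 F1 alone of the 32 lay within the wild-type range. The fitted log2 fold changes at 6 months were 2.50 ± 0.43 in Q20 (adjusted p = 0.00217), 2.62 ± 0.46 in Q50 (0.00212), 2.57 ± 0.36 in Q92 (1.34e-05) and 2.59 ± 0.36 in Q140 (3.2e-07). The matching values at 10 months were 2.29 ± 0.38, 2.51 ± 0.37, 2.29 ± 0.31 and 3.01 ± 0.28. At 10 months Q140 exceeded Q20 by 0.72 ± 0.27 (adjusted p = 0.0397), where 27.3% of all genes differed between the alleles, while at 6 months that difference was -0.09 ± 0.32 (adjusted p = 0.905). The Gm2420 transcript is 93.91% identical over 2266 bases to Sfi1, a centrosome gene on chromosome 11, whose mean log2 fold change over the alleles was 0.02 and -0.07.

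Dpysl5 (ENSMUSG00000029168, chr5:30711564-30799375, plus strand) encodes a collapsin response mediator protein, of a family that acts on the cytoskeleton of growing axons and dendrites. Its wild-type level was 34.8, 39.3 and 44.5 CPM (lowest, median and highest of 16) at 6 months and 30.3, 38.8 and 41.8 at 10 months. Knock-in values at 6 months were 47.0, 51.3 and 53.04 CPM in Q20, 44.5, 47.5 and 54.0 in Q50, 46.3, 47.9 and 49.4 in Q92, and 36.6, 49.5 and 52.3 in Q140. Q140 M2 was the one knock-in library of that age inside the wild-type range. At 10 months the values were 34.1, 47.1 and 51.5 CPM in Q20, 45.8, 51.6 and 59.2 in Q50, 42.6, 47.9 and 51.4 in Q92, and 40.7, 46.9 and 48.9 in Q140, with Q20 M4 and Q140 M4 inside the wild-type range.

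The difference in Dpysl5 was 1.34-fold in Q20 at 6 months (log2 0.42 ± 0.05, adjusted p = 2.44e-07), 1.21-fold in Q50 (0.00212), 1.24-fold in Q92 (6.32e-06) and 1.24-fold in Q140 (1.5e-07). At 10 months it was 1.23-fold in Q20 (adjusted p = 0.0217), 1.32-fold in Q50 (3.35e-05), 1.23-fold in Q92 (0.000455) and 1.19-fold in Q140 (0.000247). The Q20 call at 10 months was lost on leaving out any of Q20 F4, Q20 M1, wild-type F4 or wild-type M3 of the Q20 cohort, with log2 values from 0.27 to 0.35 over all the single omissions and adjusted p-values up to 0.0741. Dpysl5 was lower in Q140 than in Q50 at 10 months by 0.20 ± 0.06 on the log2 scale (adjusted p = 0.0181), a comparison added after the data were seen, in which 11.6% of all genes were called. At 6 months that difference was 0.00 ± 0.05.

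Atraid (ENSMUSG00000013622, chr5:31048312-31054623, plus strand) encodes a membrane protein first described as induced by retinoic acid. It had the highest level of the 9 genes that differ in the short-repeat alleles, at 44.7 ± 1.64 FPKM in 6-month wild types of the Q20 cohort (SD, n = 8), beside 13.6 ± 0.30 for Galnt11, 8.22 ± 0.623 for Dpysl5 and 1.40 ± 0.292 for Abhd1. In CPM the wild types had 42.6, 46.4 and 53.8 at 6 months and 42.6, 46.5 and 49.5 at 10 months. At 6 months Atraid was 35.5, 36.7 and 39.0 CPM in Q20, 34.8, 39.99 and 48.8 in Q50, 37.0, 38.0 and 40.01 in Q92, and 34.3, 37.7 and 41.7 in Q140. All lay below the wild-type range except Q50 F1 and F3. Levels at 10 months were 32.3, 36.5 and 40.8 CPM in Q20, 35.6, 36.8 and 39.7 in Q50, 36.4, 38.7 and 40 in Q92, and 37.1, 38.7 and 47.98 in Q140, where Q140 M4 lay within the wild-type range.

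Atraid fell by 0.34 ± 0.04 on the log2 scale in Q20 at 6 months (adjusted p = 2.58e-06), 1.27-fold lower than wild type, by 0.28 ± 0.04 in Q92 (6.32e-06) and by 0.30 ± 0.04 in Q140 (3.42e-08). In Q50 at 6 months it fell by 0.21 ± 0.04 (adjusted p = 0.0326). That call was lost on leaving out any of 11 libraries, namely Q50 F2, F4, M1, M2, M3 and M4 and wild-type F1, F3, M2, M3 and M4 of the Q50 cohort, with adjusted p-values up to 0.21 and log2 values from -0.25 to -0.18. At 10 months the 4 alleles had log2 values of -0.31, -0.33, -0.26 and -0.22, in order of repeat length, all called. Q140 was above Q20 by 0.12 ± 0.04 at 10 months (adjusted p = 0.0221) and by 0.03 ± 0.04 at 6 months (adjusted p = 0.733). Atraid shares 242 transcript bases with Slc5a6 on the opposite strand.

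Promoter sequences of Dpysl5 and Atraid are shown because these are the coding genes of the set that rose and fell in every allele. Each is the RefSeq sequence of GRCm38.p6 from 250 bases before to 50 bases after the start, on the plus strand, at chr5:30711314-30711613 for Dpysl5 and chr5:31048390-31048689 for Atraid, with the GC box GGGCGG or its reverse complement CCGCCC in capitals.
Dpysl5: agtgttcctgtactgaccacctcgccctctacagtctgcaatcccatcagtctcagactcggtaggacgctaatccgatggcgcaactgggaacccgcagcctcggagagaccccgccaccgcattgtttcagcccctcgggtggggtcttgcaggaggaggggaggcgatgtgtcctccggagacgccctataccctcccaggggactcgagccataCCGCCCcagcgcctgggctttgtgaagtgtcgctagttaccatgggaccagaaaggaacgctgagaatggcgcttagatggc
Atraid: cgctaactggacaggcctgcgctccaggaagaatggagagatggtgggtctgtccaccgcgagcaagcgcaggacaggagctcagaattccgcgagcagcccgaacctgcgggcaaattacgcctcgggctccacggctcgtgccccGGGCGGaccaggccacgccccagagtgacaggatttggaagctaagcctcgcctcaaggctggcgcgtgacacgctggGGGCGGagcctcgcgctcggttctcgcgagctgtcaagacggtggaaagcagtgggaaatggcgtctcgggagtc
The Dpysl5 window holds 19 CG pairs and 1 GC box, and the Atraid window holds 29 CG pairs and 2 GC boxes, beside a median of 7 CG pairs over 32851 mouse promoter windows. A GC box on either strand is found in 35.7% of those windows, TATAAA in 13.6% and CCAAT in 37.4%, and neither of these other motifs is in the Dpysl5 or Atraid window. These are reference strain sequences, and no variant between strains was examined.

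**Figure D2:**
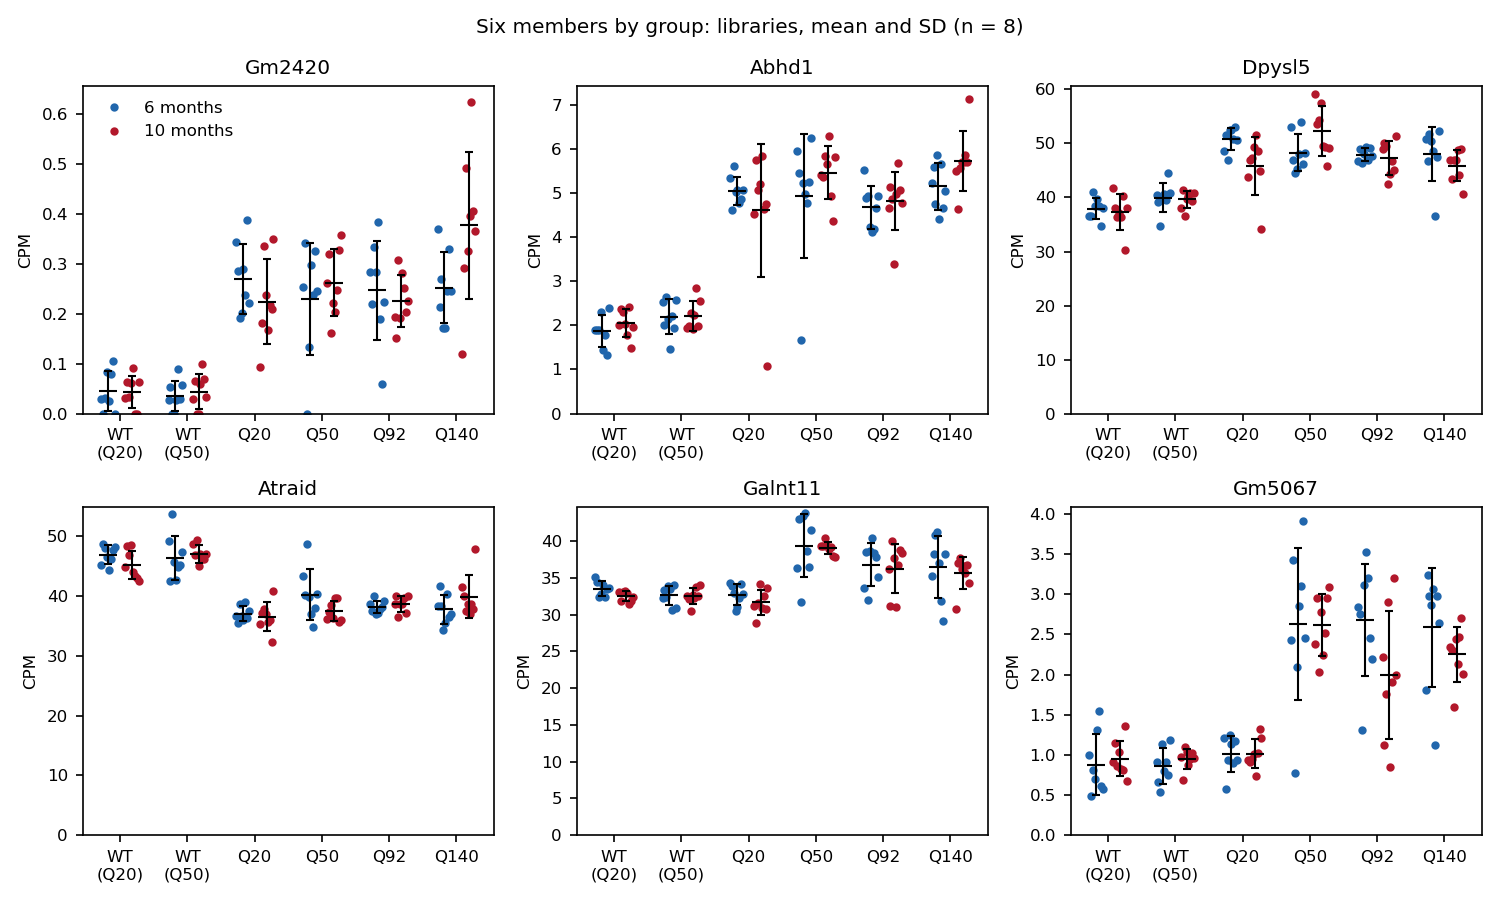
Level in CPM (vertical axis) of Gm2420, Abhd1, Dpysl5, Atraid, Galnt11 and Gm5067 in each of the 12 groups (horizontal axis), each point 1 library and each bar the mean ± SD of 8. Gm2420, Abhd1, Dpysl5 and Atraid stand apart from wild type in all knock-in groups, while Galnt11 and Gm5067 in Q20 lie with the wild types.

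Farther out, from 8.66 to 9.54 Mb before Htt, 4 genes differed from wild type in Q50, Q92 and Q140 and not detectably in Q20. They are Galnt11, Gm5067, Gm10471 and 5031410I06Rik, and all 4 rose at both ages in each of the 3 longer alleles. For the last 3 the difference from Q20 was itself called at both ages in Q92 and in Q140. In Q140 minus Q20, 13.5% of all genes and 11 of the 53 (20.8%) were called at 6 months, and 27.3% of all genes and 14 of the 53 (26.4%) at 10 months, the latter share near that of all genes. In Q92 minus Q20, 0.11% of all genes and 3 of the 53 were called at 6 months, and 1.71% and 4 at 10 months.

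Gm5067 (ENSMUSG00000090671, chr5:26007027-26008035, plus strand) is annotated as a processed pseudogene. Its wild-type level was 0.481, 0.804 and 1.55 CPM (lowest, median and highest of 16) at 6 months and 0.668, 0.957 and 1.36 at 10 months. Q20 mice had 0.573, 1.03 and 1.24 CPM at 6 months and 0.738, 0.979 and 1.32 at 10 months, all within the wild-type range. At 6 months it was 0.775, 2.65 and 3.91 CPM in Q50, 1.31, 2.80 and 3.53 in Q92, and 1.12, 2.92 and 3.25 in Q140. Its values at 10 months were 2.03, 2.65 and 3.09 CPM in Q50, 0.843, 1.955 and 3.20 in Q92, and 1.59, 2.33 and 2.70 in Q140. In each of the 3 groups at 6 months 7 of 8 libraries were above every wild type.

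In fold terms Gm5067 was 3.04-fold higher in Q50 at 6 months (log2 1.60 ± 0.24, adjusted p = 0.000132), 3.10-fold in Q92 (5.01e-07) and 2.996-fold in Q140 (2.28e-08), and in Q20 its log2 value was 0.21 ± 0.25 (95% interval -0.28 to 0.70, adjusted p = 1). At 10 months it was 2.75-fold, 2.08-fold and 2.35-fold higher in the 3 longer alleles, and the Q20 value was 0.09 ± 0.18 (-0.26 to 0.45). Q140 exceeded Q20 by 1.36 ± 0.23 at 6 months (adjusted p = 3.04e-05) and by 1.14 ± 0.17 at 10 months (3.15e-06). Q92 exceeded it by 1.41 ± 0.23 (0.00148) and 0.97 ± 0.17 (0.00246). The Q50 effect exceeded the Q20 effect by 1.39 ± 0.35 at 6 months (adjusted p = 0.598) and 1.36 ± 0.25 at 10 months (0.0177), in a comparison that used 4 groups and in which 0.0115% and 0.0231% of all genes were called. The Gm5067 transcript is 94.56% identical to Rrs1, a ribosome assembly gene on chromosome 1, whose mean log2 fold change over the alleles was 0.02 and 0.05. It is closer to Gm21168 (96.736%), and Gm6089 is 90.662% identical. Both lie on chromosome 5 and neither is among the counted genes, so the part of reads shared with them was not tested.

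Gm10471 (ENSMUSG00000073116, chr5:26082574-26089291, minus strand) and 5031410I06Rik (ENSMUSG00000051940, chr5:26098668-26105362, minus strand) are neighbouring protein-coding genes. Each has 10 near-identical transcripts of other genes, all on chromosome 5, so reads can be shared within the family and the values below are uncertain as to the copy. Gm10471 was at 0.0579, 0.182 and 0.413 CPM in wild types at 6 months and 0, 0.126 and 0.318 at 10 months. In Q20 it was 0, 0.180 and 0.321 CPM, then 0.0336, 0.171 and 0.273. No Q20 library was above the wild-type range, and Q20 M3 at 6 months, at 0, was below it. In the 3 longer alleles at 6 months it was 0.0894, 1.15 and 1.58 CPM in Q50, 0.195, 1.04 and 1.19 in Q92, and 0.0547, 0.987 and 1.35 in Q140. The 10-month values were 0.651, 0.782 and 0.929 CPM in Q50, 0.169, 0.660 and 1.06 in Q92, and 0.639, 0.890 and 1.14 in Q140, and at that age no Q50 or Q140 library overlapped the wild types. At 10 months Gm10471 passed the low-count filter through its levels in these 3 alleles.

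The log2 fold changes of Gm10471 at 6 months were 2.59 ± 0.42 in Q50 (adjusted p = 0.000664), 2.33 ± 0.33 in Q92 (1.74e-05) and 2.20 ± 0.34 in Q140 (1.98e-06), against -0.22 ± 0.49 in Q20 (95% interval -1.18 to 0.73). At 10 months they were 2.54 ± 0.35, 2.25 ± 0.29 and 2.70 ± 0.28, against 0.29 ± 0.43 in Q20 (-0.55 to 1.13). The difference from Q20 was 2.24 ± 0.41 for Q140 at 6 months (adjusted p = 9.32e-05) and 2.37 ± 0.41 for Q92 (0.00284), and 2.43 ± 0.34 (8.4e-07) and 1.98 ± 0.35 (0.00197) at 10 months.

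5031410I06Rik was at 0.116, 0.308 and 0.508 CPM in wild types at 6 months and 0, 0.185 and 0.436 at 10 months. Q20 mice had 0.111, 0.247 and 0.396 CPM, then 0.0607, 0.196 and 0.329. Q50 mice had 0.387, 0.9999 and 1.40 CPM at 6 months and 0.683, 0.829 and 1.34 at 10 months. Q92 mice had 0.279, 1.09 and 1.49, then 0.0907, 0.680 and 1.39, and Q140 mice 0.246, 0.932 and 1.27, then 0.578, 0.7495 and 1.22. It was 3.5-fold higher in Q50 at 6 months (log2 1.81 ± 0.30, adjusted p = 0.000927), 3.21-fold in Q92 and 2.74-fold in Q140, and 5.36-fold, 3.76-fold and 4.27-fold at 10 months. In Q20 its log2 value was -0.56 ± 0.33 at 6 months (adjusted p = 1) and -0.04 ± 0.45 at 10 months. Q140 exceeded Q20 in 5031410I06Rik by 1.81 ± 0.31 (adjusted p = 2.3e-05) and 1.997 ± 0.39 (0.00016), and Q92 exceeded Q20 by 2.04 ± 0.30 (0.000187) and 1.81 ± 0.39 (0.0101).

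Of the other near-identical relatives of these 2 genes, 6 are in the table and 3 were tested. Speer4a rose by 1.08 in Q140 at 6 months (adjusted p = 0.000126), while at 10 months it was 0.22 in Q140 (0.671) and was called in no allele. At 6 months Gm7347 rose by 1.498 in Q140 (0.00511) and by 1.53 in Q92 (0.022), while its value in Q50 was 1.79 (adjusted p = 0.967). Gm7361 fell in Q140, by 0.50 at 6 months (0.0199) and by 0.62 at 10 months (0.0173). The part that shared reads play in the 2 genes' values was not tested.

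The promoter windows of the pair are shown because the genes moved together and are near copies. They are read on the minus strand from the same RefSeq table, at chr5:26089215-26089514 for Gm10471 and chr5:26105265-26105564 for 5031410I06Rik, with CCAAT in capitals.
Gm10471: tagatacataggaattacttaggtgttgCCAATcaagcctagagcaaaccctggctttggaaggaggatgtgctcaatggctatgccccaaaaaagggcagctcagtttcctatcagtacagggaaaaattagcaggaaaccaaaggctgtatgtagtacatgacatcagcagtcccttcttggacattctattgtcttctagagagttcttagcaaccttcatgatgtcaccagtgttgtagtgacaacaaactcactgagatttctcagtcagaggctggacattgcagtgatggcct
5031410I06Rik: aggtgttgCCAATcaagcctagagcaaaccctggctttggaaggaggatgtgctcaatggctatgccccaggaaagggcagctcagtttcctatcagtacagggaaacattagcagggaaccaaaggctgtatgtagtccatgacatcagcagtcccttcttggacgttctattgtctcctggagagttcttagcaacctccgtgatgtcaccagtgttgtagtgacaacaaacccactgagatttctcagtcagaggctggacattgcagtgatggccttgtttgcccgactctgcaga
Aligned to each other they have 269 identical bases, 11 mismatches and 40 gap positions. The first holds 0 CG pairs and the second 3, and each holds 1 CCAAT, near its 5′ end.

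Galnt11 (ENSMUSG00000038072, chr5:25221904-25265918, plus strand) encodes an enzyme that starts mucin-type O-glycosylation. Wild types had 30.6, 33.4 and 35.1 CPM at 6 months and 30.5, 32.5 and 34.0 at 10 months. Q20 mice had 30.4, 32.9 and 34.2 CPM, then 28.9, 31.3 and 34.1. Q50 mice had 31.7, 40.04 and 43.8 CPM at 6 months and 37.9, 39.3 and 40.4 at 10 months, and at 10 months all 8 were above every wild type. Q92 mice had 31.95, 38.1 and 40.4, then 31.0, 37.2 and 40.1, and Q140 mice 29.1, 37.6 and 41.2, then 30.8, 36.4 and 37.7.

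Galnt11 rose by 0.27 ± 0.06 in Q50 at 6 months (adjusted p = 0.0289), 0.16 ± 0.05 in Q92 (0.0401) and 0.14 ± 0.05 in Q140 (0.0285), and by 0.26 ± 0.04 (0.00014), 0.15 ± 0.04 (0.0278) and 0.12 ± 0.04 (0.00897) at 10 months. In Q20 it was -0.04 ± 0.06 and -0.04 ± 0.04 (95% intervals -0.15 to 0.07 and -0.12 to 0.04). At 10 months Galnt11 differed from Q20 in Q140 by 0.16 ± 0.04 (adjusted p = 0.00244), in Q92 by 0.19 ± 0.04 (0.01) and, as a difference of effects, in Q50 by 0.30 ± 0.06 (0.0222). At 6 months those differences were 0.16 (0.0576), 0.18 (0.234) and 0.31 (0.598), and none was called.

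Several of these Galnt11 calls sit close to the threshold. At 6 months the Q50 call was lost without any of Q50 F2, F4, M1, M2 or M4 or wild-type F1, F3, M2 or M4 of the Q50 cohort (adjusted p up to 0.129). The Q92 call was lost without any of Q92 F2, F4, M1, M2 or M3, wild-type F4 or M3 of the Q20 cohort or wild-type F3, M2 or M4 of the Q50 cohort (up to 0.11), and the Q140 call without any of Q140 F2, F3, F4, M1 or M4 (up to 0.0923). At 10 months the Q92 call was lost without any of Q92 F3, F4, M2, M3 or M4 (up to 0.104), and the difference of the Q50 and Q20 effects in 17 of 48 omissions. With the thalamus and cortical marker levels as covariates, Galnt11 at 6 months was 0.15 in Q92 (adjusted p = 0.248) and 0.14 in Q140 (0.0621). Galnt11 overlaps E130116L18Rik on the opposite strand.

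The most distant gene, 6030443J06Rik (ENSMUSG00000097207, chr5:22550432-22807850, plus strand), is a long intergenic non-coding RNA 12.2 Mb before Htt with another pattern over the alleles. Wild types had 0.436, 0.921 and 1.41 CPM at 6 months and 0.519, 0.799 and 1.03 at 10 months. Q50 mice had 1.10, 2.27 and 3.85 CPM at 6 months, with 7 of 8 above every wild type, and 1.21, 1.62 and 1.99 at 10 months, with 8 of 8 above. Q92 mice had 0.586, 1.70 and 3.90 CPM, then 0.611, 0.917 and 1.77, with 4 of 8 above every wild type at each age. No Q20 library and no Q140 library lay above the wild types at either age: Q20 ran from 0.581 to 1.31 CPM and from 0.383 to 0.966, and Q140 from 0.595 to 1.24 and from 0.518 to 0.983.

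6030443J06Rik rose by 1.27 ± 0.24 in Q50 at 6 months (adjusted p = 0.008) and 1.18 ± 0.20 at 10 months (0.000446), and by 1.04 ± 0.20 in Q92 at 6 months (0.00303). In Q92 at 10 months its value was 0.53 ± 0.17 (0.201). In Q140 it was -0.12 ± 0.22 (95% interval -0.55 to 0.32) and -0.04 ± 0.18 (-0.38 to 0.31), and in Q20 -0.01 ± 0.25 and -0.28 ± 0.20. Compared directly, Q140 was below Q50 by 1.36 ± 0.24 on the log2 scale at 6 months (adjusted p = 3.22e-05) and 1.12 ± 0.19 at 10 months (7.61e-05). This pair was compared after the values were seen, and 26.1% and 11.6% of all genes were called in it. Q140 was below Q92 by 1.15 ± 0.24 at 6 months (0.00149), where 6.38% of all genes were called, and by 0.56 ± 0.20 at 10 months (0.105), where 3.3% were. The Q50 effect exceeded the Q20 effect by 1.46 ± 0.28 at 10 months (0.0222), a call lost in 13 of 48 single omissions, and by 1.28 ± 0.35 at 6 months (0.766).

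**Figure D3:**
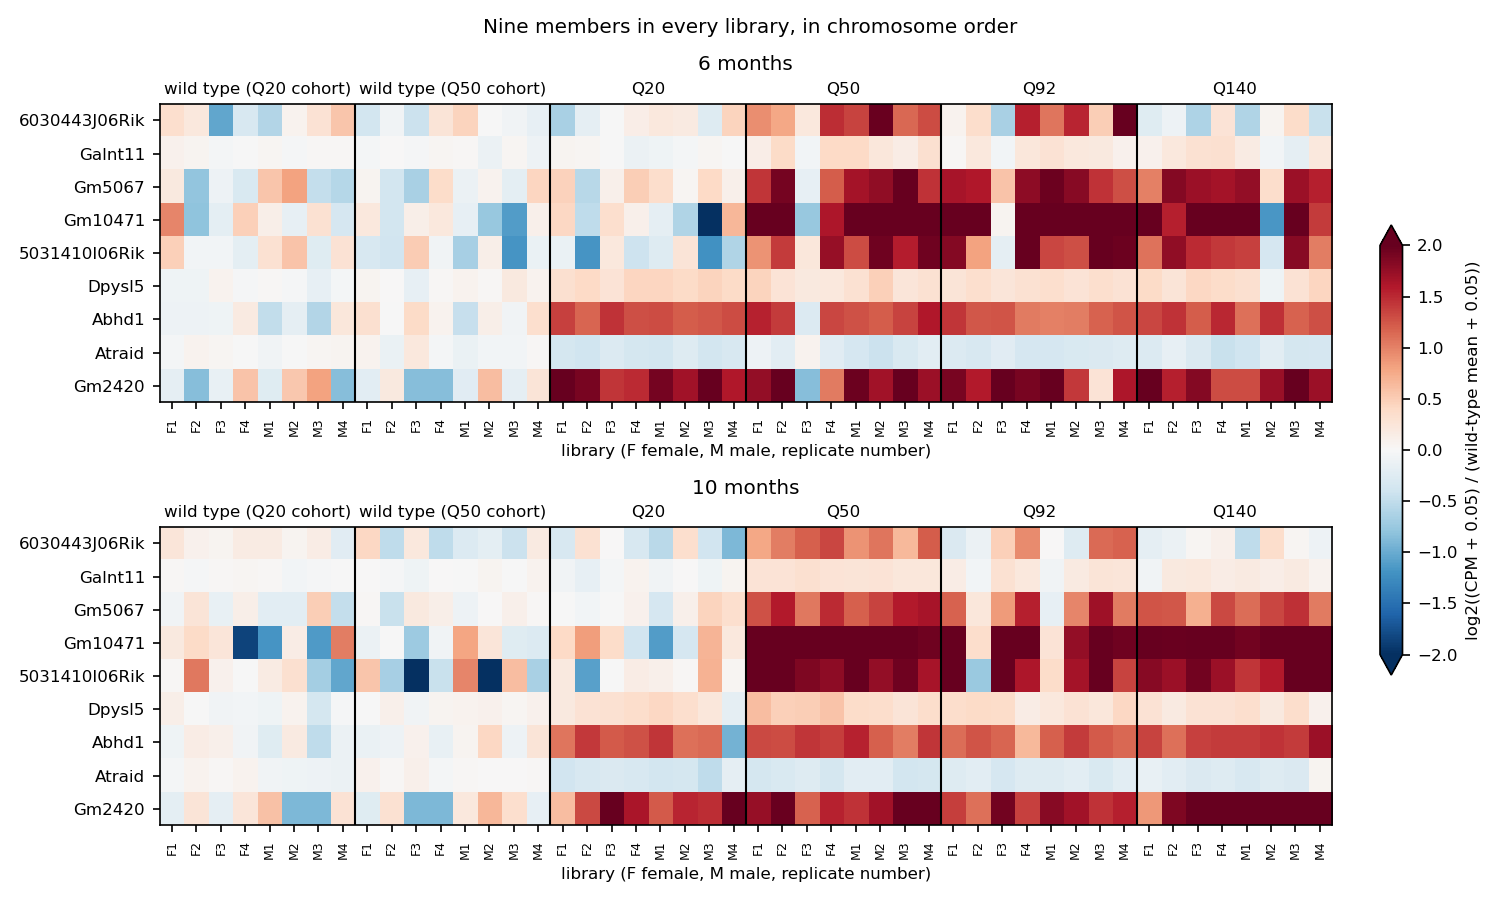
Log2 of the level in each library over the wild-type mean (colour), after adding 0.05 CPM to both, for 9 genes in order along the chromosome (rows) and the 48 libraries of each age (columns, by group). Q50 F3 at 6 months has wild-type colours in nearly every row, and Q92 F3 at 6 months and Q92 F2 and M1 at 10 months have them in the rows of the distant genes alone.

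Some single libraries departed from their group over several genes at once. Q50 F3 at 6 months lay within the wild-type range for 8 of the 9 genes of these 3 patterns, with Abhd1 at 1.67 CPM, Gm2420 at 0, Atraid at 48.8, Gm10471 at 0.0894 and Galnt11 at 31.7, and was just above it for Dpysl5, at 44.54 CPM against a wild-type highest of 44.52. The labels give it as Q50, and it was kept as labelled. Without it all 9 Q50 calls of that age held, with log2 fold changes of 1.31 for Abhd1, 2.80 for Gm2420, 0.29 for Dpysl5, -0.25 for Atraid, 0.31 for Galnt11, 1.74 for Gm5067, 1.93 for 5031410I06Rik and 1.36 for 6030443J06Rik.

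Q92 F3 at 6 months was at 0.195 CPM for Gm10471, 1.31 for Gm5067, 0.279 for 5031410I06Rik and 31.95 for Galnt11, all within the wild-type range. The same library was outside it for the nearer genes, with Abhd1 at 4.94 CPM, Dpysl5 at 46.3, Atraid at 40.01 and Gm2420 at 0.335. Q92 F2 and Q92 M1 at 10 months had the same division, with Gm5067 at 1.12 and 0.843 CPM and Abhd1 at 5.14 and 4.97. In Q140 M2 at 6 months Galnt11, Gm5067, 5031410I06Rik and Dpysl5, at 36.6 CPM, were within the wild-type range, and Gm10471 was just below it. Abhd1 at 5.66 CPM, Atraid at 40.4 and Gm2420 at 0.246 were outside the range with their group. Dpysl5 is the farthest of these 4 nearer genes from Htt. Without Q140 M2 the Q140 log2 fold changes at 6 months were 0.36 for Dpysl5, 1.71 for Gm5067, 2.39 for Gm10471, 1.60 for 5031410I06Rik and 0.17 for Galnt11.

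Q20 M4 at 10 months had Abhd1 at 1.09 CPM and Dpysl5 at 34.1, not above wild type, but Atraid at 40.8 and Gm2420 at 0.351 CPM, outside the wild-type range with its group. Without it the Q20 log2 fold changes at 10 months were 1.32 for Abhd1, 0.35 for Dpysl5, -0.33 for Atraid and 2.20 for Gm2420, all called. Q140 M4 at 10 months was within the wild-type range for Dpysl5 and for Atraid, at 47.98 CPM. It was outside the range with its group for Abhd1, Gm2420, Galnt11, Gm5067, Gm10471 and 5031410I06Rik. Abhd1 starts between Dpysl5 and Atraid, so this division does not follow the order of the genes. In none of these libraries was the DNA genotype examined, and each animal gave a single library.

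No change of effect with age was called for these genes. The change of the effect from 6 to 10 months, over the mean of the 4 alleles, was -0.03 ± 0.13 on the log2 scale for Abhd1, -0.03 ± 0.34 for Gm2420, -0.01 ± 0.05 for Dpysl5, 0.01 ± 0.04 for Atraid, 0.00 ± 0.04 for Galnt11, -0.29 ± 0.19 for Gm5067, 0.23 ± 0.38 for Gm10471 and 0.51 ± 0.33 for 5031410I06Rik. For 6030443J06Rik the change over the mean of the alleles was -0.19 ± 0.20. In Q92 alone the change was -0.56 ± 0.25 for Gm5067 (adjusted p = 0.347) and -0.50 ± 0.27 for 6030443J06Rik (0.466). In the same allele it was 0.00 ± 0.06 for Galnt11, -0.07 ± 0.55 for Gm10471 and 0.24 ± 0.40 for 5031410I06Rik. EdgeR called 0 of the 53 for a change of effect with age in any allele, against 0% of all genes in Q20, 0% in Q50, 0.0736% in Q92, 1.27% in Q140 and 0% in the mean. The numbers of the 53 with an unadjusted p under 0.05 were 2, 2, 6, 4 and 2 in the same order, and no other tool was run on this question.

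The mean of the 4 alleles against wild type gave 12 calls of 53 at 6 months, 9 higher and 3 lower, where 3% of all genes were called, 0.784% higher and 2.22% lower. At 10 months it gave 10 calls, 8 higher and 2 lower, where 2.34% were called, 0.92% higher and 1.42% lower. Besides the 8 genes above with a called mean at both ages, Slc5a6 and Otof were called at both. Slc5a6, the sodium-dependent multivitamin transporter 3.73 Mb before Htt, rose by 0.19 ± 0.03 at 6 months (adjusted p = 5.26e-06) and 0.16 ± 0.04 at 10 months (0.0174). By allele it was called in Q92, at 0.25 ± 0.04 (1.81e-05), and Q140, at 0.26 ± 0.04 (3.63e-07), at 6 months and in no allele at 10 months. It overlaps Atraid, which moved the other way.

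Otof encodes otoferlin, which serves vesicle fusion in hair cells of the inner ear, and starts 4.39 Mb before Htt. At 6 months it was 35.1, 45.4 and 77.8 CPM in wild types of the Q20 cohort, 50.5, 61.4 and 78.8 in those of the Q50 cohort and 29.2, 40.6 and 45.1 in Q140. The Q140 libraries overlapped the former wild types and lay below all of the latter. The mean over the alleles fell by 0.40 ± 0.09 at 6 months (adjusted p = 0.00523) and 0.44 ± 0.11 at 10 months (0.0186), and the latter call was lost without wild-type M2 of the Q20 cohort (0.0507). Of the single alleles, Q140 was called at 6 months, with -0.54 ± 0.13 (0.00153), and Q92 at 10 months, with -0.73 ± 0.16 (0.0219). The Q92 call was lost without any of Q92 F1, F3, F4, M1 or M2.

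Close to Htt, the called genes of the set were called in Q140. Of all 51 genes tested within 2 Mb on either side, 3 were called in Q92 at 6 months, and none of the 3 is in the set. Of the 22 tested genes within 2 Mb, 8 were called in Q140 at 6 months, 5 higher and 3 lower, which is 36.4% beside 23.7% of all genes. At 10 months 6 were called, 4 higher and 2 lower, 27.3% beside 19.2%. Their median absolute log2 fold change in Q140 was 0.119 at 6 months beside 0.0933 over all genes, and 0.0956 beside 0.0991 at 10 months. Over the whole set, 18 genes were called in Q140 and in no other allele, 34% of them, beside 29.9% of all genes tested at both ages. This is a count of calls and not a test of a difference between alleles.

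Mfsd10, a membrane transporter-like protein 0.13 Mb before Htt, was the only gene of the set whose slope on CAG length was called at both ages, upward. Its level at 6 months was 10.5, 12.96 and 14.8 CPM in wild types of the Q20 cohort, 12.4, 13.5 and 14.7 in those of the Q50 cohort, and 14.2, 15.01 and 17.1 in Q140, so the groups overlapped slightly. The slope over the knock-in libraries was 0.24 ± 0.07 per 120 repeats at 6 months (adjusted p = 0.0104), where 17.1% of all genes and 8 of the 53 were called, and 0.26 ± 0.08 at 10 months (0.0126), where 23.5% and 11 were. Against wild type it was 0.23 ± 0.06 in Q140 at 6 months (0.00169) and 0.29 ± 0.07 at 10 months (0.00317). Against Q20, Mfsd10 in Q140 was higher by 0.29 ± 0.06 (0.00093) and 0.26 ± 0.08 (0.0151), and the latter call was lost without Q140 M4 (0.0515). In Q20, Q50 and Q92 Mfsd10 was not called against wild type, and at 6 months Q140 minus Q92 was called. The slope therefore does not show a rise at each step of repeat length. At 10 months the mean thalamus marker level was 6.00 in Q20 and 3.86 in Q140, the ends of the slope, and its part there was not tested.

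Adra2c, the alpha-2C adrenergic receptor, starts 0.52 Mb after Htt. It was at 28.2, 31.4 and 35.6 CPM in 6-month wild types of the Q20 cohort, 32.6, 35.9 and 39.5 in those of the Q50 cohort, and 21.2, 24.0 and 31.0 in Q140, with overlap with the first group. Adra2c fell by 0.45 ± 0.06 at 6 months (adjusted p = 4.79e-08), while its value at 10 months was -0.27 ± 0.16 (0.228). Zfyve28, which encodes a FYVE zinc finger protein of endosomes 0.57 Mb before Htt, was at 66.9, 73.8 and 82.4 CPM in wild types of the Q20 cohort, 73.1, 78.5 and 87.9 in those of the Q50 cohort and 55.6, 60.9 and 66.2 in Q140, with no overlap. It fell by 0.33 ± 0.05 at 6 months (7.45e-07) and by 0.35 ± 0.09 at 10 months (0.00547). Against Q20, Adra2c was 0.35 ± 0.07 lower at 6 months (0.000106), and Zfyve28 0.34 ± 0.05 lower (9.5e-06). At 10 months neither difference was called, with 0.00 ± 0.18 for Adra2c (0.993) and -0.13 ± 0.11 for Zfyve28 (0.368). The markers of striatal projection neurons were lower in Q140 as well, with libraries from 8.26 to 8.85 against 9.05 to 9.51 in wild types of the Q20 cohort, and their part in these results was not tested. With thalamus and cortical marker levels as covariates the log2 fold changes in Q140 at 6 months were -0.39 for Adra2c and -0.30 for Zfyve28.

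Among the genes nearest to Htt, the cytoskeletal protein alpha adducin (Add1, 0.19 Mb before) fell in Q140 by 0.13 ± 0.03 at 6 months (adjusted p = 0.00511) and 0.15 ± 0.05 at 10 months (0.0172), the latter lost without Q140 M4 (0.0659). Grk4, a G protein-coupled receptor kinase 0.10 Mb before, rose by 0.33 ± 0.10 (0.0116) and 0.36 ± 0.09 (0.00476), the former lost without Q140 M3 (0.0527). Nop14, a factor of small ribosomal subunit assembly, rose by 0.15 ± 0.03 at 6 months (3.85e-05), as did Fam193a by 0.13 ± 0.03 (0.00078) and Dok7, an adaptor of the muscle receptor kinase MuSK, by 0.26 ± 0.05 (0.000148). At 10 months these 3 had values of 0.12, 0.06 and 0.22, not called. At 10 months Letm1, a mitochondrial inner membrane protein, rose by 0.08 (0.00479), and Nelfa, of the negative elongation factor complex, rose by 0.11 (0.0412), a call lost in 11 of the 48 single omissions. In Q140 minus Q20 at 6 months, 6 of the 22 genes within 2 Mb were called, beside 13.5% of all genes, and all 6 are among the 8 called in the same Q140 libraries against wild type. At 10 months 4 of the 22 were called (18.2%), beside 27.3% of all genes, and of the 8 this was Mfsd10 alone.

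**Figure D4:**
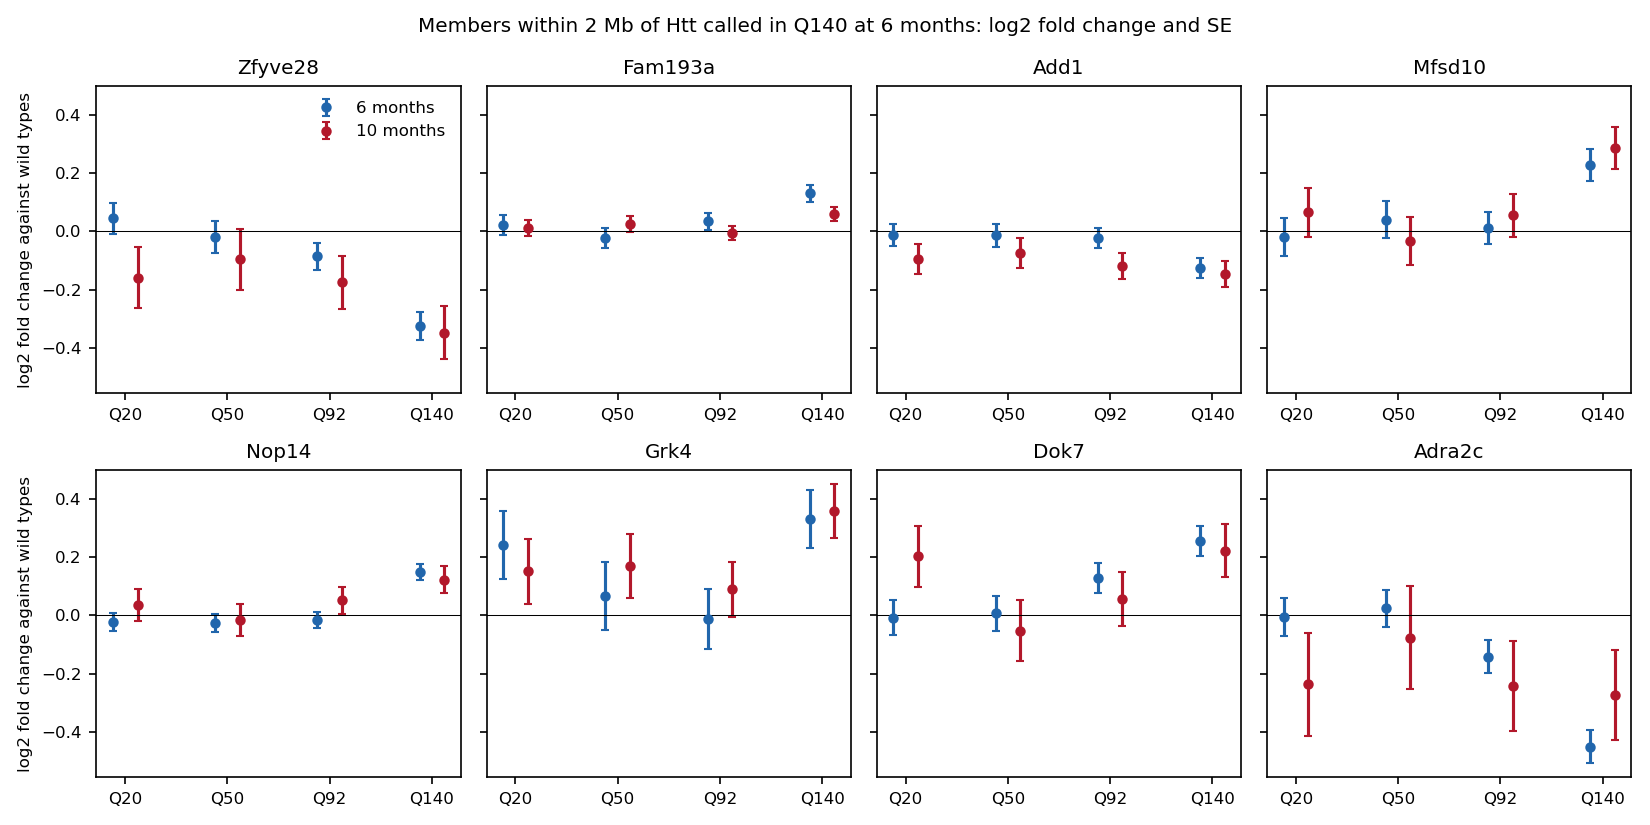
Log2 fold change against wild type ± SE (vertical axis) of the 8 genes within 2 Mb of Htt called in Q140 at 6 months, by allele (horizontal axis) and age. Zfyve28, Add1 and Adra2c are below 0 in Q140 and the other 5 above it, and none of the 8 was called in Q20, Q50 or Q92.

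Farther from Htt, Q140 also held calls of its own at 2 to 6 Mb. Agbl5, a tubulin deglutamylase, rose by 0.14 ± 0.05 at 6 months (adjusted p = 0.026), lost without Q140 F1, F2 or M2, and exceeded Q20 by 0.18 ± 0.06 (0.0242) and 0.19 ± 0.07 (0.0244). Its value against wild type at 10 months was 0.05 (0.561). Zfp513, a zinc finger protein, rose by 0.10 ± 0.03 (0.0196) and 0.23 ± 0.06 (0.00671) and exceeded Q20 by 0.11 ± 0.04 (0.0474) and 0.27 ± 0.07 (0.00501). Its 6-month call against wild type was lost without Q140 M2 or M4, and that against Q20 in 30 of 48 single omissions. At 10 months Ift172, of intraflagellar transport, rose by 0.12 (0.00737), the phosphatase Ppm1g by 0.11 (0.00492) and the sorting nexin Snx17 by 0.09 (0.0113).

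Slc30a3, which loads zinc into synaptic vesicles of cortical neurons, varied widely between libraries. It was at 0.638, 3.57 and 13.1 CPM in 6-month wild types of the Q20 cohort, 0.472, 3.43 and 12.8 in those of the Q50 cohort and 0.479, 0.999 and 3.87 in Q140, with full overlap. Its Q140 value was -1.83 ± 0.64 at 6 months (adjusted p = 0.033) and -0.48 at 10 months, not called. The 6-month call was lost without any of Q140 F1, F2, F4, M2 or M3, wild-type F3 of the Q20 cohort or wild-type M4 of the Q50 cohort. It was also lost with the thalamus and cortical marker levels as covariates (log2 -0.83, adjusted p = 0.13). The mean log2 CPM of 10 cortical projection neuron markers was 3.22 ± 0.696 in wild types of the Q20 cohort, 3.14 ± 0.716 in those of the Q50 cohort and 2.69 ± 0.584 in Q140 (SD, n = 8 each), with libraries from 1.995 to 4.33 in the first and 1.97 to 3.76 in the last, and of these markers Emx1 alone was at 0 in some libraries.

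Of the 53 tested genes, 24 were called in no allele at either age, with log2 fold changes from -0.489 to 0.344, and 29 were called in at least 1 (54.7%), beside 35.7% of all genes tested at both ages. A single gene outside the set within 12 Mb of Htt was called in the mean of the alleles at both ages, Ppp1cb, a catalytic subunit of protein phosphatase 1, 2.30 Mb before Htt. It fell by 0.14 ± 0.02 at 6 months (adjusted p = 9.01e-05) and 0.17 ± 0.03 at 10 months (0.000844). By allele Ppp1cb was called in Q92 at 6 months, at -0.15 (0.00717), and in Q140 at both ages, at -0.23 (4.27e-07) and -0.25 (4.47e-05), and in Q20 its values were -0.08 and -0.17, not called.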

How the data were processed

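Striatal mRNA-seq libraries of 96 mice were analysed from a table of gene counts and a table of FPKM values. The counts are expected counts as deposited by the authors (28% of the non-zero values were not whole, at a tolerance of 0.001), and they were rounded to whole numbers. The FPKM values are those the authors deposited and were used for levels between genes and for an alternative test. The submitters' processing notes name CASAVA 1.8.2, while no source used here gives the aligner, the annotation or the use of strand in counting. Genes were tested with edgeR 4.0.16 in R 4.3.3 (TMM scaling, filterByExpr, robust quasi-likelihood F test), each age fitted apart over 48 libraries in 6 groups with sex as a covariate. This kept 17339 genes at 6 months and 17285 at 10 months, and the comparison of ages used 17670 genes over 96 libraries. Standard errors are the log2 fold change over the square root of F, and 95% intervals are 1.96 standard errors on each side. Repeat length entered the slope as a number, scaled to 120 repeats. The number of counts limits the precision of low genes such as Gm2420, and the steps were tested on simulated counts.

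Named genes were Htt, those called in the same direction at both ages in the mean of the alleles, in the slope or between alleles, and other genes within 12 Mb called in the mean at both ages. Further genes, those called in Q140 near Htt, were named after their values were seen. The genes of the set, the lists and the comparisons were chosen with earlier results of these data known. Alternatives were RLE scaling, no filter, DESeq2 1.42.0, limma 3.58.1 on log2(FPKM + 0.1) and on log2(FPKM + 1), marker covariates, each sex alone, other wild types, a replicate block and single omissions. No label says that a replicate number marks a shared litter, batch or day.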

Additional observations from a re-analysis of the deposited data

Results flagged for a closer look

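In 132 sets of 8 libraries, 1 gene in 1 group at 1 age each, 9 held a library whose gap to the next was more than 0.526 of the whole range, and chance gives this in about 1 in 20 sets. For Abhd1 these were Q50 F3 at 6 months with 1.668 CPM, Q20 M4 at 10 months with 1.085 CPM and Q92 F4 at 10 months with 3.382 CPM, each the lowest of its group. For Dpysl5 they were Q140 M2 at 6 months with 36.58 CPM, Q20 M4 at 10 months with 34.13 CPM and wild-type M3 of the Q20 cohort at 10 months with 30.28 CPM, again the lowest. Gm10471 in Q92 F3 at 6 months was at 0.1952 CPM, and Atraid in Q140 M4 at 10 months was at 47.98 CPM, the highest of its group. The last was 6030443J06Rik in wild-type M4 of the Q20 cohort at 10 months, with 0.6362 CPM.

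The effect of the Q50 allele on some genes differed from that of Q20, each against its own wild types, by the test of the difference itself. The difference was 2.371 on the log2 scale for 5031410I06Rik at 6 months, and at 10 months it was 1.463 for 6030443J06Rik, 0.299 for Galnt11 and 1.365 for Gm5067. The first of these calls was lost in 25 of the 48 single omissions.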

How the results depend on the processing

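No fold change called in the main fit changed direction under any alternative that tested its gene. Values not called in the main fit were not followed. Leaving out each library of an age in turn gave 4 to 4 called genes in Q20 at 6 months, 7 to 9 in Q50, 9 to 12 in Q92, 20 to 24 in Q140 and 10 to 12 in the mean of the alleles, and at 10 months 3 to 4, 9 to 9, 7 to 9, 16 to 20 and 9 to 13. With a replicate block the counts were 4, 9, 10, 22 and 12 at 6 months and 4, 9, 9, 17 and 10 at 10 months, in the same order. Correlations of same-numbered libraries' deviations ran from -0.586 to 0.502. They were not set against differently numbered libraries, so they do not decide whether replicate numbers pair the libraries. Limma on log2(FPKM + 1) without a filter called 5 in Q50 at 6 months and 2 in Q20 at 10 months. With the wild types of the Q50 cohort alone, 16 were called in Q92 at 6 months. Females alone, 4 a group, gave 2 in Q20, 0 in Q50, 13 in Q140 and 5 in the mean at 6 months, and 2, 5, 7 and 6 at 10 months. Males alone gave 3 in Q50 and 13 in Q140 at 6 months, and 0 in Q20, 0 in Q50, 0 in Q92, 8 in Q140 and 4 in the mean at 10 months. These fits used fewer libraries, and single-sex counts of the comparisons not named here are left out. Other calls lost to a single omission kept their direction: 6030443J06Rik in the mean at 6 months in 15 omissions, and Mfsd10 in Q140 minus Q92 at 6 months in 6. Counts near 1 per library limit Gm2420 in wild types.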

Other observations

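Away from chromosome 5, edgeR called 2 genes in Q50 at both ages, Gm6410 on chromosome 8 and Gm11331 on chromosome 13. Gm6410 rose by 1.25 ± 0.17 on the log2 scale at 6 months and 1.28 ± 0.17 at 10 months, and Gm11331 by 1.68 ± 0.32 and 2.53 ± 0.43. At 6 months Gm6410 was 0.664, 1.01 and 1.17 CPM (lowest, median and highest of 8) in wild types of the Q20 cohort, 0.867, 1.04 and 1.33 in those of the Q50 cohort and 0.722, 0.973 and 1.16 in Q20. It was 1.34, 2.84 and 3.06 CPM in Q50, 1.48, 2.53 and 3.66 in Q92, and 1.04, 2.23 and 2.56 in Q140. The lowest libraries of the last 3 groups were Q50 F3, Q92 F3 and Q140 M2, which were also not above the wild-type range for Gm5067, Gm10471, 5031410I06Rik and Galnt11. For Gm11331 the lowest libraries of the same groups were the same 3, at 0.0596, 0.139 and 0.109 CPM. No relation between these genes was tested.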
